A study of Mus musculus with 34 samples.

Results

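Intercalated cells are the acid-base cells of the collecting duct, and the 10 genes described here carry out their work. The genes were chosen by name, with earlier results of these data known. They comprise the proton pump subunits *Atp6v1b1*, *Atp6v0a4*, *Atp6v1g3* and *Atp6v0d2*, the transcription factor *Foxi1*, the alpha cell exchanger *Slc4a1*, the beta cell exchangers *Slc26a4* and *Slc4a9*, and the ammonia transporters *Rhbg* and *Rhcg*. All 10 were found among the 23509 genes of the count tables, and all 10 passed the filter on low counts that left 15644 genes for testing.

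Kidney mRNA was sequenced from 34 C57BL6 mice on postnatal day 28 (P28), with 1 library per mouse. The UNT group (n = 12) comprised untreated wildtype mice without the transgene. The PBS group (n = 11) comprised *Pkd2*-KO mice given PBS, and the RGLS4326 group (n = 11) comprised *Pkd2*-KO mice given 20 mg/kg of the anti-miR-17 oligonucleotide RGLS4326, both injected subcutaneously on P10, P11, P12 and P19. In this model floxed *Pkd2* alleles are deleted by a Cre recombinase under the *Pkhd1* promoter, which is active in renal tubules and collecting ducts, the segment that holds the intercalated cells. The labels spell the genotype "Pdk2KO". PBS mice differed from UNT mice in genotype and in injection, and the 2 cannot be told apart.

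Alpha intercalated cells secrete acid: a V-ATPase on their apical membrane pumps protons into the urine while the anion exchanger AE1 (*Slc4a1*) returns bicarbonate to the blood. Beta intercalated cells work the other way round and secrete bicarbonate through pendrin (*Slc26a4*). Both types depend on the forkhead factor FOXI1, which drives the genes of the pump and of the exchangers, and ammonia leaves through the Rh glycoproteins *Rhbg* and *Rhcg*.

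In cystic kidneys the exchangers of both cell types fell farthest, the pump subunits fell less and *Rhcg* was higher. The *Rhcg* call was lost once read shares of the libraries were fitted as covariates, but these shares do not overlap between PBS and UNT mice. *Foxi1* was higher by a margin that passed or missed the test depending on the scaling, the tool and single libraries. *Slc4a1* fell 5.49-fold, *Slc26a4* 3.78-fold and *Slc4a9* 3.72-fold between UNT and PBS mice, whereas *Rhcg* rose 1.63-fold. After RGLS4326, the exchangers and pump subunits did not pass the test against PBS, and *Foxi1* and *Rhcg* fell, calls that were lost once the share of reads outside genes was fitted as a covariate.

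Libraries held 17603122 to 54981992 reads in genes, and the fewest reads of any of the 10 genes in a library were 168, for *Slc4a1*. The deleted gene *Pkd2* had a mean of 274 ± 34.4 CPM (SD, n = 12) in UNT, 160 ± 32.2 CPM (n = 11) in PBS and 210 ± 23.8 CPM (n = 11) in RGLS4326 mice, and every PBS mouse was below every UNT mouse. CPM, the usual depth-scaled count, was computed here with TMM factors. PBS replicate 9 stood apart, with a correlation of 0.978 to the rest of its group across genes, and results that change without it are given in place. Nothing in the labels says that mice of a group came from separate litters, so the p-values measure the spread between these mice. In whole kidney, fewer cells of a type and less RNA per cell cannot be told apart.

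RGLS4326 binds the seed of miR-17, the stretch by which a microRNA recognises its targets, so the 10 genes were searched for matches to it. The mature sequence from RefSeq (GRCm38.p6, chr14:115043684-115043706) is shown with the seed, bases 2 to 8, in capitals, above the only 2 matches found in the annotated 3′UTRs of the 10 genes, with the matching bases in capitals and 11 bases of flank on each side.
mmu-miR-17-5p: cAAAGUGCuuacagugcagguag
Atp6v1g3 match, chr1:138288758-138288764, plus strand: tgaggaatgtcCACTTTAactcagatgtg
Atp6v0d2 match, chr4:19877961-19877967, minus strand: ttgaccctgtgGCACTTTttgtattctca
The *Atp6v1g3* match was of the 7mer-A1 type (bases 2 to 7 of the microRNA plus an A) and the *Atp6v0d2* match of the 7mer-m8 type (bases 2 to 8). No 8-base match was found in any of these 3′UTRs, and those of *Foxi1* and *Rhcg*, which fell after RGLS4326, held 0 matches. The share of all 3′UTRs with a match was not computed. Coordinates are on GRCm38 (GENCODE M21), and a match says only that these letters are present.

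FOXI1 is a forkhead protein, so promoters were searched for the forkhead letters TGTTTAC on both strands. RefSeq promoters of 300 bases (250 before to 50 after the start) were at hand for 6 of the 10 genes, and 1 of the 6 held the letters, against 3.65% of all 32851 promoters and 2.64% of the 14673 promoters of tested genes. That promoter belonged to *Atp6v1b1* (GRCm38.p6, plus strand), with the letters in capitals on the strand of the gene, beginning 98 bases before the start.
Atp6v1b1 promoter, chr6:83742767-83743066: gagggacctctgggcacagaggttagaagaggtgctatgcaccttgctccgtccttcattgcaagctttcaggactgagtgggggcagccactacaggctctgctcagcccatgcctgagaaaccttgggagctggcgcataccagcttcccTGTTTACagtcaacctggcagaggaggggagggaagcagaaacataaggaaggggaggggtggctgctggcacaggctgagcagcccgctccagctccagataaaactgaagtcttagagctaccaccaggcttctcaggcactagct
No match in the other promoters (*Atp6v0a4*, *Atp6v1g3*, *Foxi1*, *Slc26a4* and *Rhcg*) says only that these letters are not in those windows.

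The V-ATPase has a V1 sector that splits ATP and a V0 sector that carries protons across the membrane, and several of its subunits exist in a widely expressed form and in a form made in few cell types. *Atp6v1b1* (chr6:83742990-83758855, plus strand) encodes the B subunit of V1 found in intercalated cells. Its level ranged from 139.6 CPM to 210 CPM (median 192) in UNT, from 102 to 154 (median 110.3) in PBS and from 78.2 to 145 (median 97.6) in RGLS4326 mice. All 11 PBS mice were below the UNT mean, and 9 of the 11 were below every UNT mouse. The log2 fold change PBS vs UNT was -0.66 (SE 0.10, edgeR adjusted p = 1.2e-07), and the RGLS4326 vs PBS difference was -0.17 (SE 0.10, edgeR adjusted p = 0.159).

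*Atp6v0a4* (chr6:38048483-38124586, minus strand) encodes the a4 subunit of V0, through which protons cross. UNT mice had 406 to 584 CPM (median 524), PBS mice 176 to 345 (median 219) and RGLS4326 mice 181 to 337 (median 291). No PBS mouse reached the lowest UNT mouse. The gene fell in PBS vs UNT by 1.12 on the log2 scale (SE 0.10, edgeR adjusted p = 4.3e-12, 11 of 11 mice). Above the PBS mean lay 9 of 11 RGLS4326 mice, and the change was 0.24 (log2, SE 0.11, edgeR adjusted p = 0.077). Its exons overlap those of *D630045J12Rik* on the same strand by up to 259 bases and of *Tmem213* on the opposite strand by 62, and the strand setting of the counting is not given in the sources used here, so its counts are less certain than those of the other subunits.

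*Atp6v1g3* (chr1:138273738-138289462, plus strand), a G subunit of the V1 stalk, ranged from 57.6 to 82.4 CPM (median 73.6) in UNT and from 27.0 to 57.3 CPM (median 36.0) in PBS mice. The groups did not overlap, and PBS replicate 9 held the highest PBS value. The gene fell by 0.96 on the log2 scale (SE 0.10, edgeR adjusted p = 9.1e-11), and by 1.07 without PBS replicate 9. In RGLS4326 mice, with 26.8 to 46.0 CPM (median 32.3), the log2 fold change against PBS was -0.18 (SE 0.10, edgeR adjusted p = 0.156), for a gene that holds a miR-17 seed match.

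*Atp6v0d2* (chr4:19876841-19922605, minus strand), a d subunit of V0 that osteoclasts and some macrophages also make, fell least of the 4 pump subunits in PBS vs UNT. UNT mice had 54.6 to 73.8 CPM (median 59.8), PBS mice 39.2 to 58.3 (median 50.1) and RGLS4326 mice 35.6 to 53.5 (median 42.8). The fall in PBS vs UNT was 1.23-fold (log2 fold change -0.30, SE 0.07, edgeR adjusted p = 1.1e-04), with 9 of 11 PBS mice below every UNT mouse. With scaling by library size alone, which moved the median log2 fold change of all genes to 0.33, it was -0.0040. RGLS4326 vs PBS gave -0.16 (SE 0.07, edgeR adjusted p = 0.065), a call that was reached without any 1 of RGLS4326 replicates 4, 6 and 10 and PBS replicates 1 and 9 (edgeR adjusted p from 0.034 to 0.043).

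*Foxi1* (chr11:34204338-34208089, minus strand) ranged from 30.7 to 58.6 CPM (median 40.5) in UNT, from 36.4 to 69.5 CPM (median 57.9) in PBS and from 19.1 to 52.0 CPM (median 35.6) in RGLS4326 mice. Its log2 fold change PBS vs UNT was 0.31 (SE 0.13, edgeR adjusted p = 0.034), with 9 of 11 PBS mice above the UNT mean and overlapping groups. That call was lost without any 1 of 10 libraries (PBS replicates 2, 3, 8 and 9, UNT replicates 1, 4, 6, 10, 11 and 12, edgeR adjusted p from 0.050 to 0.084), and the difference was -0.14 within library set 2 against 0.59 and 0.50 within sets 1 and 3. Library sets are the 3 runs of numbers that restart in the table names, and each holds 3 or 4 mice of every group.

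After RGLS4326 *Foxi1* fell. All 11 RGLS4326 mice were below the PBS mean and 6 were below every PBS mouse, a 1.55-fold decrease (log2 fold change -0.63, SE 0.14, edgeR adjusted p = 0.0029). The difference was -0.95, -0.39 and -0.63 within library sets 1, 2 and 3, and no single library left out ended the call (edgeR adjusted p up to 0.0070). Fitted alone, with 3 or 4 mice a group, none of the sets gave a call (edgeR adjusted p = 0.066, 0.269 and 0.262), and with the share of reads outside genes as a covariate *Foxi1* was at -0.55 and did not pass (edgeR adjusted p = 0.083). Against UNT, *Foxi1* was lower in RGLS4326 mice by 0.32 on the log2 scale (SE 0.13, edgeR adjusted p = 0.029), a call lost without any 1 of RGLS4326 replicates 1, 5 and 9 and UNT replicates 7, 8 and 9 (edgeR adjusted p from 0.054 to 0.064).

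The alpha cell gene *Slc4a1* (chr11:102348824-102366203, minus strand) had the largest change of the 10. UNT mice had 51.5 to 74.3 CPM (median 60.9) and PBS mice 7.59 to 18.1 CPM (median 10.0), so the highest PBS mouse was far below the lowest UNT mouse. On the log2 scale it fell by 2.46 (SE 0.13, 11 of 11 mice, edgeR adjusted p = 1.9e-18). RGLS4326 mice had 7.27 to 20.9 CPM (median 12.6), and the change against PBS of 0.22 (SE 0.13) did not pass the test (edgeR adjusted p = 0.178). It did pass without PBS replicate 8, the highest PBS mouse, at 0.32 (edgeR adjusted p = 0.044).

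*Slc4a1* is also the anion exchanger of red cells, so erythroid genes were examined beside it. Of 10 erythroid genes 3 could be tested, and in PBS vs UNT *Alas2*, the first enzyme of erythroid heme synthesis, fell (log2 fold change -1.74, SE 0.29, edgeR adjusted p = 1.6e-06), as did the erythroid factor *Klf1* (-2.23, SE 0.18, edgeR adjusted p = 1.3e-13), whereas the membrane protein gene *Epb42* rose (1.76, SE 0.23, edgeR adjusted p = 1.1e-08). The summed level of these 3 genes was 10.3 to 48.4 CPM in UNT, 4.20 to 17.7 CPM in PBS and 8.04 to 18.8 CPM in RGLS4326 mice. The globin genes *Hba-a1* and *Hbb-bs* had at most 1 and 5 reads in a library and *Hbb-bt* had 0, but uniquely mapped reads leave out near-identical copies such as the globin genes. *Ahsp* was not analysed here. Within groups, the correlation of *Alas2* with *Slc4a1* was r = 0.349 (rho 0.427) in UNT, 0.367 (rho 0.227) in PBS and -0.466 (rho -0.282) in RGLS4326 mice, and none passed (permutation tests adjusted over 18 relations, adjusted p for r 0.445, 0.445 and 0.387). Without the 2 mice farthest from the median of *Alas2*, r was 0.0242, 0.623 and -0.0279. The part of red cells in the *Slc4a1* values was not tested further.

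The beta cell gene *Slc26a4* (chr12:31519827-31559969, minus strand), for pendrin, ranged from 74.3 to 91.6 CPM (median 87.0) in UNT and from 14.4 to 42.3 CPM (median 21.7) in PBS mice. It fell by 1.92 on the log2 scale (SE 0.14, edgeR adjusted p = 1.1e-14), with a gap between the groups. RGLS4326 mice had 15.9 to 40.4 CPM (median 26.8), and the difference against PBS was 0.24 (SE 0.14, edgeR adjusted p = 0.183). Without PBS replicate 8 it was 0.37 and passed (edgeR adjusted p = 0.019).

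*Slc4a9* (chr18:36528147-36556273, plus strand), the exchanger AE4 on the basolateral side of beta cells, also fell. UNT mice had 127 to 199.9 CPM (median 170), PBS mice 26.0 to 62.0 (median 46.7) and RGLS4326 mice 31.5 to 85.2 (median 45.4). The fall in PBS vs UNT was 1.89 on the log2 scale (SE 0.15, edgeR adjusted p = 2.7e-14, 11 of 11 mice). RGLS4326 mice were spread more widely (SD 18.5 CPM against 9.91 in PBS) and 3 of the 11 lay above every PBS mouse, with a difference of 0.20 (log2, SE 0.14, edgeR adjusted p = 0.281).

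The ammonia transporters went opposite ways. *Rhbg* (chr3:88242874-88254709, minus strand), on the basolateral membrane, ranged from 45.8 to 82.1 CPM (median 70.7) in UNT, from 18.2 to 32.3 (median 22.9) in PBS and from 17.2 to 30.2 (median 20.2) in RGLS4326 mice. It fell 2.89-fold in PBS vs UNT (log2 fold change -1.53, SE 0.11, edgeR adjusted p = 2.6e-15), with no overlap, and the RGLS4326 vs PBS difference was -0.13 (SE 0.11, edgeR adjusted p = 0.366). Its exons overlap those of *Gm38392* on the same strand by up to 187 bases, so its counts are uncertain to that extent.

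*Rhcg* (chr7:79593363-79617657, minus strand), found on the apical and basolateral membranes of intercalated cells and also in principal cells, had 145 to 257 CPM (median 199) in UNT and 238 to 394 CPM (median 337) in PBS mice. All 11 PBS mice were above the UNT mean and 9 were above every UNT mouse (log2 fold change 0.71, SE 0.15, edgeR adjusted p = 4.8e-05). Library set 2 fitted alone gave 0.45 for *Rhcg*, which did not pass (edgeR adjusted p = 0.098), and covariates for the reads outside genes or without a unique alignment gave 0.26 and -0.25, neither of which passed (edgeR adjusted p = 0.243 and 0.532). Neither of these read shares overlaps between PBS and UNT mice, so they cannot be told apart from the group. RGLS4326 mice spread from 121 to 391 CPM (median 228), wider than either other group, and 7 of the 11 were below every PBS mouse (log2 fold change -0.51, SE 0.15, edgeR adjusted p = 0.012). The differences RGLS4326 vs PBS were -0.62, -0.76 and -0.50 within library sets 1, 2 and 3, but none of the sets fitted alone called *Rhcg* (edgeR adjusted p = 0.105, 0.075 and 0.383), and the call was also lost with the share of reads outside genes as a covariate (-0.31, edgeR adjusted p = 0.263). RGLS4326 vs UNT was 0.19 (SE 0.15, edgeR adjusted p = 0.230) for *Rhcg*, and the groups overlapped.

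**Figure D1:**
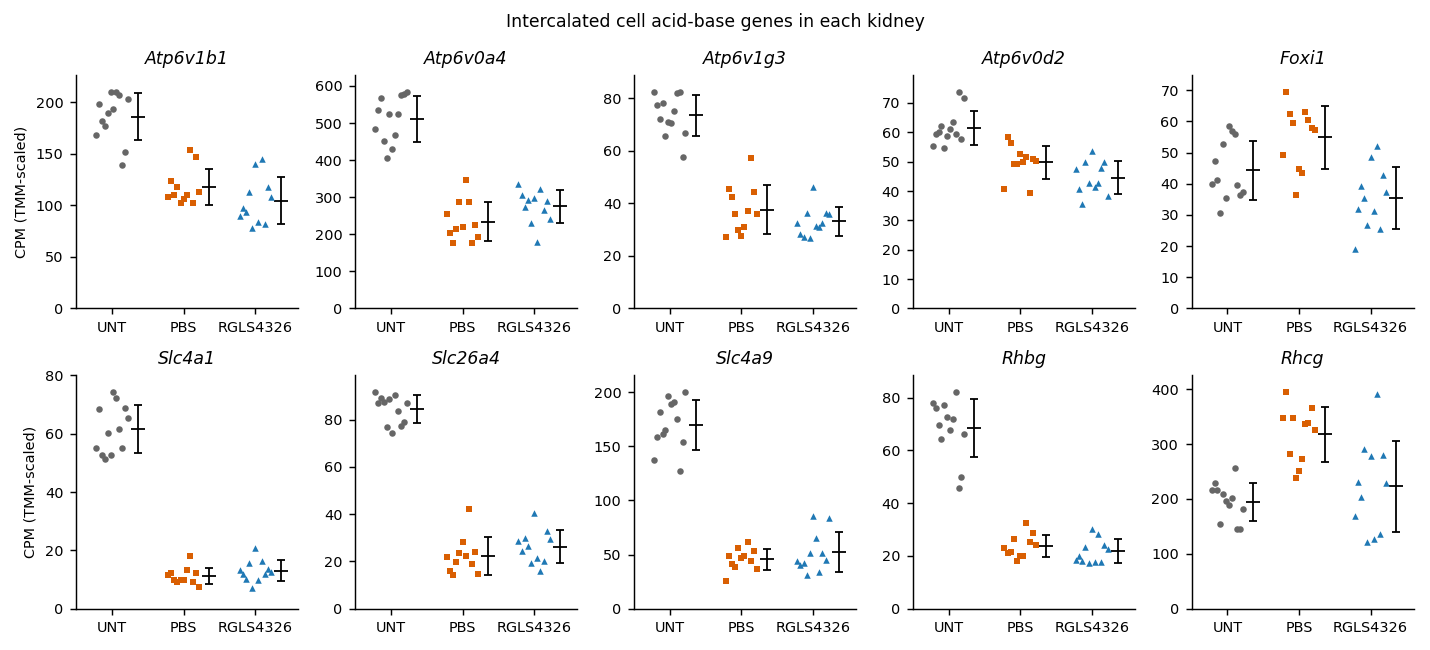
Level of each of the 10 genes (CPM after TMM scaling, linear axis from 0) in every UNT (grey circles), PBS (orange squares) and RGLS4326 (blue triangles) mouse, with the mean and SD beside each group. For *Slc4a1*, *Slc26a4*, *Slc4a9*, *Rhbg*, *Atp6v0a4* and *Atp6v1g3* all PBS mice lie below all UNT mice, whereas for *Rhcg* the PBS mean of 318 CPM lies above the UNT mean of 195 CPM.

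The 10 genes together were read against all genes, since much of the transcriptome differed in cystic kidneys. In PBS vs UNT 8 of the 10 fell and 2 rose, beside 39.0% of all tested genes called lower and 43.1% called higher. For 6 of the 10 every PBS mouse was below every UNT mouse, beside 19.8% of all tested genes. The median log2 fold change was -1.04 over the 10 and 0.039 over all tested genes. DESeq2 called 9 of the 10, all but *Foxi1*, beside 12854 of all 15644 tested genes, so this count is near the background. The 10 were chosen with earlier results of these data known.

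RGLS4326 vs PBS called 2 of the 10 lower and 0 higher (edgeR), beside 18.5% of all tested genes called lower and 15.3% called higher. Near that background, the 2 of 10 are not a result about the list. Without PBS replicate 8 there were 5, of which 3 (*Atp6v0a4*, *Slc4a1* and *Slc26a4*) were higher, beside 5459 of 15675 tested genes called. Library sets 1 and 2 alone gave 0 lower and 1 higher each, beside 54 of 15737 and 4065 of 15944 tested genes called. The median was -0.14 over the 10 and 0.0022 over all. DESeq2 also called 2 lower and 0 higher, beside 5700 of the 15644 tested genes called. At an unadjusted edgeR p under 0.05 there were 4 of the 10, the other two being *Atp6v0d2* (lower) and *Atp6v0a4* (higher), beside 7262 of the 15644 tested genes, so this count too is near the background. In RGLS4326 vs UNT, a comparison that shares its mice with the others, 9 of the 10 were lower (36.9% of all genes) and 0 higher (40.8% of all genes), the exception being *Rhcg*, which also did not pass unadjusted or by DESeq2, and for 7 every RGLS4326 mouse was below every UNT mouse (16.1% of all genes). There *Slc4a1* stood at a log2 fold change of -2.23, *Slc4a9* at -1.70, *Slc26a4* at -1.68, *Rhbg* at -1.66, *Atp6v1g3* at -1.15, *Atp6v0a4* at -0.89, *Atp6v1b1* at -0.83 and *Atp6v0d2* at -0.46.

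**Figure D2:**
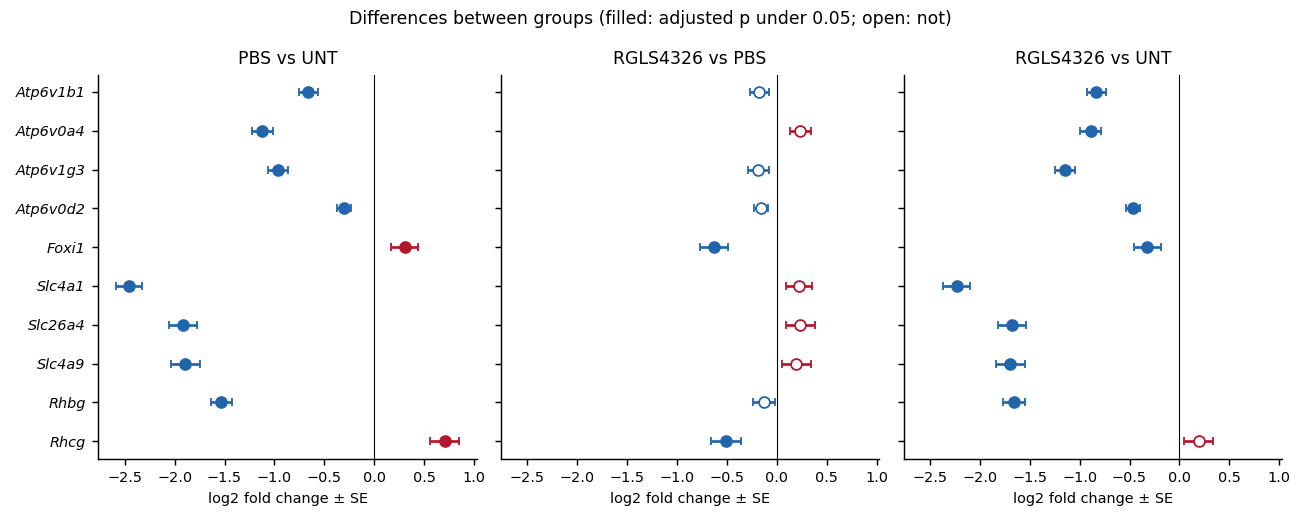
Log2 fold change with its standard error for the 10 genes in each comparison (edgeR, 15644 genes tested), with filled points for an adjusted p under 0.05 and open points otherwise, blue for lower and red for higher. In PBS vs UNT the points run from -2.46 for *Slc4a1* to 0.71 for *Rhcg*, and in RGLS4326 vs PBS only *Foxi1* and *Rhcg* are filled.

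Some properties of the libraries moved with the groups. The share of reads in no gene had a median of 10.9% in UNT, 6.62% in PBS and 8.38% in RGLS4326 mice. With that share as a covariate, the RGLS4326 vs PBS difference was -0.55 for *Foxi1* (edgeR adjusted p = 0.083) and -0.31 for *Rhcg* (edgeR adjusted p = 0.263), so neither passed, and 89 of all genes were called in place of 5280. The same covariate in PBS vs UNT left *Rhcg* at 0.26 (edgeR adjusted p = 0.243) and *Foxi1* at 0.14 (edgeR adjusted p = 0.537), and the other 8 genes stayed called and lower. The share without a unique alignment ran from 22.8% to 25.7% in UNT and from 14.8% to 19.4% in PBS mice, without overlap, so it cannot be told apart from the group, and with it as a covariate *Rhcg* was at -0.25 and *Foxi1* at -0.30 in PBS vs UNT.

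Levels were compared between genes per kilobase of annotated exon. In UNT mice *Atp6v0a4* (103 ± 12.4 CPM per kb) and *Rhcg* (87.3 ± 15.4 CPM per kb) led with overlapping ranges, and no *Rhcg* value overlapped the third, *Atp6v1b1* (42.4 ± 5.26). *Atp6v1g3*, *Rhbg*, *Slc26a4*, *Slc4a9*, *Atp6v0d2*, *Foxi1* and *Slc4a1* followed, each overlapping its neighbour in the order, down to 12.6 ± 1.68 CPM per kb for *Slc4a1*. In PBS mice the order changed at the top and in the middle. *Rhcg* led alone at 143 ± 22.4 CPM per kb, above *Atp6v0a4* at 47.1 ± 10.7, and *Foxi1* rose to the fourth place at 23.3 ± 4.27, overlapping its neighbours *Atp6v1b1* and *Atp6v1g3*. *Slc4a1* was last in every group, at 2.29 ± 0.580 CPM per kb in PBS and 2.68 ± 0.747 in RGLS4326 mice, apart from the next gene in both.

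To compare the genes with each other without any scaling, ratios of gene pairs were taken within each library. The *Slc4a1* to *Atp6v1b1* ratio of counts had a median of 0.325 in UNT (0.252 to 0.454), 0.0944 in PBS (0.0672 to 0.121) and 0.118 in RGLS4326 mice (0.0932 to 0.149). It fell by 1.82 on the log2 scale in PBS vs UNT (SE 0.10), with all 11 PBS mice below every UNT mouse (two-sided permutation test with 100000 resamples, p = 1e-05, the smallest they can give, adjusted p = 3.33e-05 over 30 tests). The alpha exchanger thus fell by more than the pump subunit that both types share. In RGLS4326 vs PBS the same ratio was higher by 0.40 (SE 0.10, permutation adjusted p = 0.00176), with 5 of 11 mice above every PBS mouse.

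The beta exchanger also fell by more than the pump. The *Slc26a4* to *Atp6v1b1* ratio had medians of 0.434, 0.184 and 0.255 in UNT, PBS and RGLS4326 mice, a difference of -1.32 in PBS vs UNT (SE 0.13, permutation adjusted p = 3.33e-05, 11 of 11 mice below every UNT mouse). RGLS4326 vs PBS gave 0.45 (SE 0.17, permutation adjusted p = 0.028), a call lost without any 1 of RGLS4326 replicates 1 and 3 and PBS replicates 2, 3 and 11 (permutation adjusted p from 0.051 to 0.057). With mice paired by replicate number the call was also lost (sign-flip test, adjusted p = 0.094).

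Set directly against each other, the beta gene *Slc26a4* and the alpha gene *Slc4a1* gave a ratio with a median of 1.34 in UNT (1.001 to 1.696), 1.95 in PBS (1.33 to 2.80) and 2.15 in RGLS4326 mice (0.974 to 2.92). The ratio was higher in PBS than in UNT mice by 0.50 on the log2 scale (SE 0.12, permutation adjusted p = 0.00129), with 8 of 11 PBS mice above every UNT mouse, so *Slc4a1* fell by more than *Slc26a4*. This holds for these 2 genes and not for the cell types, and *Slc4a1* is also a red cell gene. The 4 other alpha genes had a median log2 fold change of 0.37 in PBS vs UNT and the 4 other beta genes -1.29. RGLS4326 vs PBS gave 0.047 (SE 0.16, permutation adjusted p = 0.833). The ratio of the 2 beta genes, *Slc4a9* to *Slc26a4*, had medians of 2.07, 2.21 and 2.11, with a PBS vs UNT difference of 0.067 (SE 0.14, permutation adjusted p = 0.692).

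Of the 10 ratios, *Rhcg* to *Rhbg* differed most between PBS and UNT mice. Its median was 2.79 in UNT (2.39 to 3.15), 13.1 in PBS (10.4 to 18.7) and 10.1 in RGLS4326 mice (7.02 to 13.7). The difference was 2.24 in PBS vs UNT (SE 0.07, permutation adjusted p = 3.33e-05, 11 of 11 mice above every UNT mouse) and -0.46 in RGLS4326 vs PBS (SE 0.12, permutation adjusted p = 0.00127, 6 of 11 below every PBS mouse). *Foxi1* rose relative to *Atp6v1b1* in the same way, from a median of 0.240 in UNT to 0.455 in PBS (log2 difference 0.98, SE 0.11, permutation adjusted p = 3.33e-05), and stood at 0.346 in RGLS4326 mice (-0.47 against PBS, SE 0.11, permutation adjusted p = 0.000136).

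**Figure D3:**
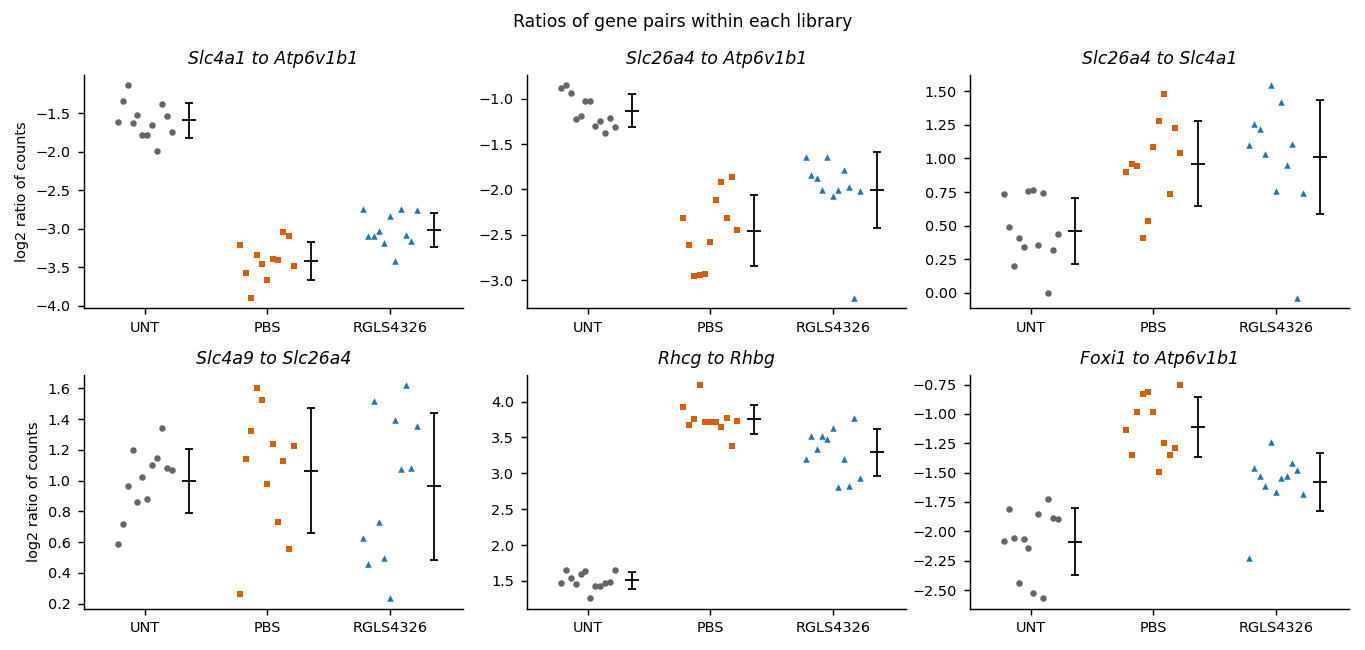
Log2 ratio of the counts of 6 gene pairs within each library (1 point per mouse, mean and SD beside each group). All PBS mice lie apart from all UNT mice for *Slc4a1* to *Atp6v1b1*, *Slc26a4* to *Atp6v1b1*, *Rhcg* to *Rhbg* and *Foxi1* to *Atp6v1b1*, whereas *Slc4a9* to *Slc26a4* overlaps in all groups.

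Each pump subunit was also set against its widely expressed paralog, which other kidney cells make. Which cells of the whole kidney the transcripts of the pump subunits came from was not tested. *Atp6v1b2* itself fell in PBS vs UNT (log2 fold change -0.66, SE 0.06, edgeR adjusted p = 6.4e-12), and the *Atp6v1b1* to *Atp6v1b2* ratio did not pass the test (log2 difference -0.0042, SE 0.11, permutation adjusted p = 0.972). *Atp6v1g1* likewise fell (-0.81, SE 0.09, edgeR adjusted p = 3.3e-10), with an *Atp6v1g3* to *Atp6v1g1* difference of -0.18 (SE 0.14, permutation adjusted p = 0.254). In V0, by contrast, *Atp6v0a1* rose (0.52, SE 0.07, edgeR adjusted p = 3.8e-08) and *Atp6v0d1* rose slightly (0.19, SE 0.08, edgeR adjusted p = 0.031). The *Atp6v0a4* to *Atp6v0a1* ratio went from a median of 8.53 in UNT to 2.62 in PBS and 3.62 in RGLS4326 mice, by -1.66 in PBS vs UNT (SE 0.16, permutation adjusted p = 3.33e-05) and 0.47 in RGLS4326 vs PBS (SE 0.17, permutation adjusted p = 0.021). The *Atp6v0d2* to *Atp6v0d1* ratio fell by 0.48 in PBS vs UNT (SE 0.11, permutation adjusted p = 0.00012).

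Of the 16 widely expressed V-ATPase genes, 9 fell, 2 rose and 5 did not pass in PBS vs UNT (median log2 fold change -0.23). The V1 gene *Atp6v1d* fell by 0.76 (SE 0.06, edgeR adjusted p = 4.7e-13). In RGLS4326 vs PBS 6 of the 16 fell and 0 rose, among them *Atp6v1f* (-0.39, SE 0.09, edgeR adjusted p = 0.0045).

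Other genes of intercalated cells were examined in the same fit. These lists and those of other cell types were written from general knowledge, but with earlier results of these data known. Of 8 genes made by both types, 6 fell, 1 rose and 1 did not pass in PBS vs UNT (median -1.21). *Atp6v1c2*, a C subunit of the pump, fell by 1.81 on the log2 scale (SE 0.08, edgeR adjusted p = 2.6e-20). The purinergic receptor gene *P2ry14* rose (0.72, SE 0.10, edgeR adjusted p = 7.4e-08) and fell after RGLS4326 (-0.31, SE 0.10, edgeR adjusted p = 0.023). *Tfcp2l1*, a transcription factor of the collecting duct and the gene that did not pass, was at 764 ± 118 CPM in UNT, 747 ± 107 in PBS and 752 ± 89.2 in RGLS4326 mice.

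The alpha and beta lists were kept apart. Of 4 other alpha genes, 2 rose and 1 fell in PBS vs UNT. *Dmrt2*, a transcription factor gene, rose by 1.31 (SE 0.10, edgeR adjusted p = 1.0e-14) and the receptor gene *Kit* by 0.82 (SE 0.09, edgeR adjusted p = 2.3e-10), whereas the anion transporter gene *Slc26a7* fell by 1.55 on the log2 scale (SE 0.19, edgeR adjusted p = 2.7e-09). *Aqp6*, a water and anion channel, was at 76.2 ± 7.41 CPM in UNT and 72.5 ± 15.1 in PBS mice and did not pass (edgeR adjusted p = 0.607). After RGLS4326, *Dmrt2* (-0.60, SE 0.10, edgeR adjusted p = 4.0e-04) and *Aqp6* (-0.42, SE 0.13, edgeR adjusted p = 0.014) fell.

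Of 4 other beta genes, 3 fell and 1 rose. *Insrr*, an insulin receptor related receptor, fell by 2.67 (SE 0.17, edgeR adjusted p = 2.7e-16), *Oxgr1*, a receptor for oxoglutarate, fell by 1.82 (SE 0.12, edgeR adjusted p = 1.9e-16) and *Hepacam2* fell by 0.77 (SE 0.07, edgeR adjusted p = 3.0e-12). *Slc4a8*, a sodium-driven chloride and bicarbonate exchanger, rose by 0.63 (SE 0.10, edgeR adjusted p = 3.7e-07). In RGLS4326 vs PBS *Insrr* (0.52, SE 0.17, edgeR adjusted p = 0.019) and *Oxgr1* (0.33, SE 0.12, edgeR adjusted p = 0.029) rose and *Slc4a8* fell (-0.36, SE 0.10, edgeR adjusted p = 0.0085). *Aqp6*, *Tfcp2l1* and *Hepacam2* were named after their values were seen.

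Principal cells, the salt and water transporting neighbours in the same duct, were examined as the other cell type that makes *Rhcg*. All 10 principal cell genes rose in PBS vs UNT (median log2 fold change 1.41), among them the transcription factor genes *Gata3* (1.39, SE 0.10, edgeR adjusted p = 8.3e-15) and *Elf5* (1.76, SE 0.16, edgeR adjusted p = 1.7e-12). Their summed level was 751 to 1168 CPM in UNT, 1342 to 3056 CPM in PBS and 739 to 2704 CPM in RGLS4326 mice, and none was at 0. In RGLS4326 vs PBS 7 of the 10 fell and 0 rose (median -0.48), *Gata3* by 0.46 (SE 0.10, edgeR adjusted p = 0.0032). *Rhcg* and *Foxi1* moved in the same directions as this list in both comparisons, and its part in their values was not tested.

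Notch signalling sets the balance of principal and intercalated cells, with Notch favouring the principal fate. Of 8 genes of that pathway, 7 rose in PBS vs UNT (median 0.60), beside 43.1% of all tested genes called higher. *Heyl*, a Notch target, was up by 1.76 (SE 0.12, edgeR adjusted p = 4.6e-16) and the receptor *Notch2* by 0.72 (SE 0.07, edgeR adjusted p = 2.2e-12). *Hey1*, named after its values were seen, did not pass. After RGLS4326 the target *Hes1* fell (-0.24, SE 0.07, edgeR adjusted p = 0.016) and the other 7 did not pass. Whole kidney does not show which cells made these transcripts, and a link to the principal or intercalated genes was not tested.

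Acid-base genes of other segments also fell. Of 9 such genes 8 fell and 0 rose in PBS vs UNT (median -1.76), with *Glud1*, an enzyme of ammonia formation, down by 1.26 (SE 0.08, edgeR adjusted p = 2.8e-16) and the carbonic anhydrase gene *Car14* down by 2.79 (SE 0.19, edgeR adjusted p = 1.1e-15). In RGLS4326 vs PBS 5 of the 9 rose and 0 fell, among them *Slc4a4*, the basolateral bicarbonate transporter of the proximal tubule (0.61, SE 0.16, edgeR adjusted p = 0.0076).

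**Figure D4:**
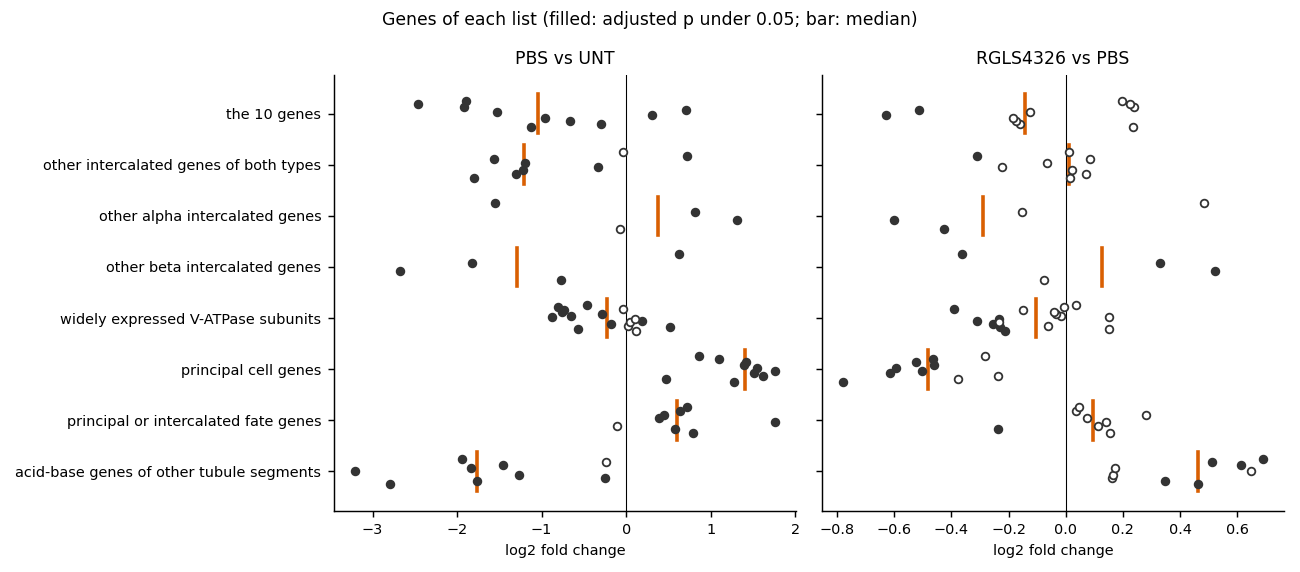
Log2 fold change of each gene of 8 lists in PBS vs UNT (left) and RGLS4326 vs PBS (right), with filled points for an edgeR adjusted p under 0.05, open points otherwise and an orange bar at the median of the list. On the left the median of the 10 genes is -1.04 and that of the principal cell genes 1.41, and on the right they are -0.14 and -0.48.

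Marker lists of other cell types moved with the groups as well. In PBS vs UNT 8 of 8 proximal tubule genes fell (summed level 10136 to 13914 CPM in UNT and 782 to 3031 CPM in PBS), as did 7 of 8 genes of the thick limb and distal tubule (8335 to 12578 and 2714 to 5171 CPM) and 4 of 5 podocyte genes (586 to 728 and 354 to 459 CPM), while 10 of 10 macrophage genes (121 to 201 and 1053 to 3200 CPM) and 6 of 6 injury genes (171 to 236 and 1634 to 3340 CPM) rose. In RGLS4326 mice these sums were 1943 to 3314, 4140 to 5952, 420 to 499, 984 to 2091 and 984 to 2454 CPM. None of these markers was at 0 in every library of a group, and their part in the values of the 10 genes was not tested.

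Osteoclasts and lipid-laden macrophages make *Atp6v0d2*, so their genes were set beside it. Of 8 such genes 6 rose and 0 fell in PBS vs UNT, *Trem2* by 4.99 (SE 0.22, edgeR adjusted p = 3.3e-21) and *Ctsk* by 2.18 (SE 0.10, edgeR adjusted p = 6.8e-21), opposite in direction to *Atp6v0d2*, and 4 of 8 fell after RGLS4326, *Gpnmb* by 1.42 (SE 0.35, edgeR adjusted p = 0.0055). Summed levels were 75.4 to 113 CPM in UNT, 102 to 232 CPM in PBS and 101 to 164 CPM in RGLS4326 mice. The correlation of *Gpnmb* with *Atp6v0d2* within groups was r = -0.182 (rho -0.315) in UNT, 0.235 (rho 0.218) in PBS and 0.221 (rho 0.355) in RGLS4326 mice (permutation adjusted p for r 0.574 in each), and -0.32, 0.000866 and -0.237 without the 2 mice farthest from the median of *Gpnmb*.

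Within groups, the genes did not all follow *Atp6v1b1* from mouse to mouse. Among RGLS4326 mice *Atp6v1b1* rose and fell with *Slc4a1* (r = 0.85, rho 0.855, n = 11, permutation p = 0.00079 and 0.00155, adjusted p = 0.0142 and 0.0139) and with *Foxi1* (r = 0.828, rho 0.873, permutation p = 0.00165 and 0.00078, adjusted p = 0.0149 and 0.0139), and r was 0.751 and 0.676 without the 2 mice farthest from the median of *Atp6v1b1*. The other 16 of the 18 relations did not pass. In PBS mice *Atp6v1b1* with *Slc4a1* gave r = 0.687 (rho 0.536, permutation adjusted p = 0.128) and 0.191 without the 2 farthest mice, and in UNT mice r = 0.272 (rho 0.301, permutation adjusted p = 0.513) and 0.514 without them. *Atp6v1b1* with *Slc26a4* gave r = 0.361, 0.497 and 0.282 in UNT, PBS and RGLS4326 mice (rho 0.231, 0.155 and 0.382, permutation adjusted p = 0.445, 0.375 and 0.513), and *Atp6v1b1* with *Atp6v0a4* gave -0.298, 0.171 and 0.514 (rho -0.182, 0.155 and 0.555, permutation adjusted p = 0.513, 0.621 and 0.375). Without the 2 farthest mice these became -0.108, -0.478 and 0.806 for *Slc26a4* and 0.242, -0.161 and 0.401 for *Atp6v0a4*, so the sign turned in UNT and PBS mice for both genes. *Atp6v1b1* with *Foxi1* gave r = 0.425 in UNT and 0.499 in PBS mice (rho 0.371 and 0.509, permutation adjusted p = 0.387 and 0.375), and 0.392 and 0.622 without the 2 farthest mice. Whether relations differ between groups was not tested.

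**Figure D5:**
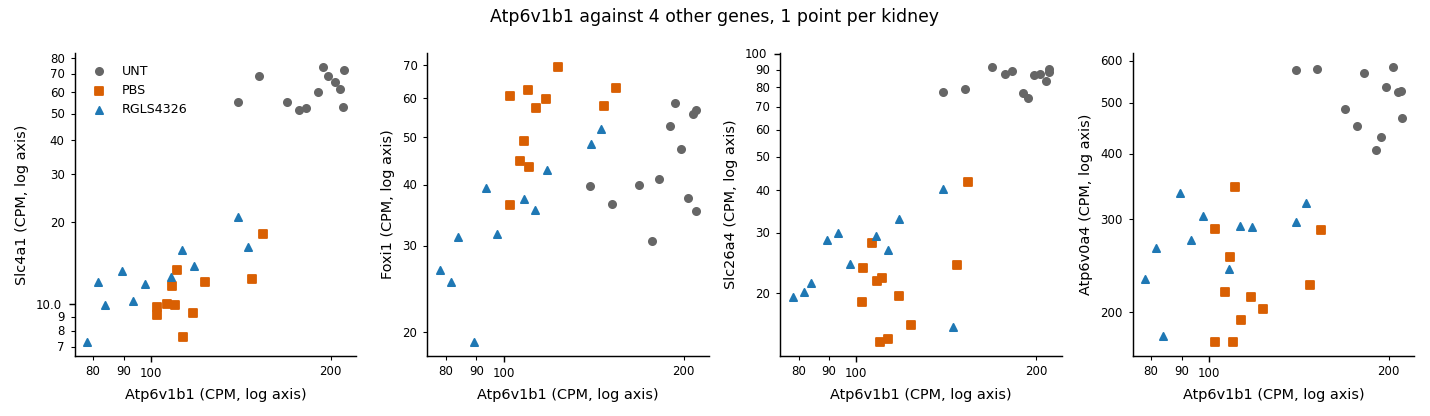
CPM of *Atp6v1b1* (horizontal, log axis) against *Slc4a1*, *Foxi1*, *Slc26a4* and *Atp6v0a4* (vertical, log axes), 1 point per mouse, with UNT in grey, PBS in orange and RGLS4326 in blue. Among the blue points *Slc4a1* (r = 0.85) and *Foxi1* (r = 0.828) climb with *Atp6v1b1*.

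A few mice set the extremes. RGLS4326 replicate 6 was the highest of its group for 6 of the 10 genes and RGLS4326 replicate 8 for 3, whereas replicate 5 was the lowest for 5. In the PBS group replicate 8 was the highest for 5 of the 10. After each gene was centred on its group mean, over 34 libraries that share depth and composition, *Atp6v1b1* was closest to *Rhbg* (r = 0.865), *Rhcg* (0.805), *Slc4a1* (0.689) and *Foxi1* (0.648) among the 10, and r was 0.213 with *Atp6v0a4*. Thus *Rhcg* varied with *Atp6v1b1* and *Rhbg* (0.792) between mice of a group, although in PBS vs UNT it moved the other way. The beta genes *Slc26a4* and *Slc4a9* had r = 0.417.

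Among all other tested genes, those near to *Atp6v1b1* by the same measure included *Col26a1* (r = 0.837), *Efhd1* (0.817), *Cldn19* (0.808) and *Alox12* (0.80). Of these *Efhd1* and *Alox12* fell in PBS vs UNT, and *Col26a1* (log2 fold change 1.96, SE 0.17) and *Cldn19* (0.34, SE 0.11) rose. The 5 nearest to *Slc26a4* were *Gpx6* (r = 0.743), *Acsm5* (0.722), *Scn4b* (0.711), *Tmem163* (0.71) and *Tldc2* (0.705), and all 5 fell in PBS vs UNT, with log2 fold changes of -3.02 for *Acsm5* and -2.49 for *Gpx6*. These correlations are descriptions with no test.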

How the data were processed

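The authors prepared stranded polyA mRNA libraries, sequenced them, trimmed reads with Trim Galore, mapped them with STAR to GRCm38 (mm10) and counted uniquely mapped reads per gene with HTSeq (version 0.6.1, per the labels). The deposited values are raw counts per gene symbol, 1 table per mouse (34), without normalization; annotation and strand setting are not given in the sources used here. Totals of unassigned reads (20.5% to 36.2% of reads) were left out.

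Counts were scaled by TMM and tested with edgeR's two-sided quasi-likelihood test (edgeR version 4.0.16 under R 4.3.3) after filterByExpr, in 1 fit of 34 libraries and 3 groups without covariate. Adjusted p is by Benjamini-Hochberg over 15644 genes, called under 0.05. Ratios (0.5 added to both counts) and correlations of log2 CPM used two-sided permutation tests with 100000 resamples in Python 3.11.15, adjusted over 30 and 18 tests. DESeq2 (version 1.42.0) was an alternative. Exon lengths, positions and 3′UTRs came from GENCODE M21.

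The members and lists were chosen with earlier results of these data known. Named were the 10 genes, their 4 paralogs, the genes of ratios and relations, per list the genes of smallest p (2 in each direction in PBS vs UNT, 1 in RGLS4326 vs PBS), shown for lists that bear on the 10 genes, and the 5 nearest genes; 1 gene that this rule names is not reported here. No 2 libraries were identical.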

Additional observations from a re-analysis of the deposited data

How the results depend on the processing

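Across 13 alternatives of scaling, tool, filter, samples and covariates, *Slc4a1*, *Slc26a4*, *Slc4a9*, *Rhbg*, *Atp6v0a4* and *Atp6v1g3* stayed called and lower in PBS vs UNT and in RGLS4326 vs UNT, and leaving out any library ended none of these calls. Over these alternatives the log2 fold changes in PBS vs UNT ran from -2.93 to -2.17 for *Slc4a1*, -2.53 to -1.62 for *Slc26a4*, -2.08 to -1.22 for *Slc4a9*, -2.15 to -1.15 for *Rhbg*, -1.36 to -0.81 for *Atp6v0a4*, -1.22 to -0.61 for *Atp6v1g3* and -1.24 to -0.37 for *Atp6v1b1*. In RGLS4326 vs UNT they ran from -2.72 to -1.94, -2.29 to -1.38, -2.04 to -1.07, -2.30 to -1.36, -1.09 to -0.59, -1.35 to -0.77 and -1.44 to -0.54 for the same genes, and from -0.96 to -0.028 for *Foxi1* (not called with library size alone or within any library set). In PBS vs UNT *Atp6v1b1* lost its call within library set 3 (-0.44, edgeR adjusted p = 0.057), *Rhcg* within library set 2 and with the no-gene read share, and *Atp6v0d2* within library set 1 (-0.23, edgeR adjusted p = 0.138), with library size alone and with the share without a unique alignment (-0.22, edgeR adjusted p = 0.297). The genes called in RGLS4326 vs PBS numbered 2, both lower, but 1 within library set 1 (*Slc26a4*, higher at 0.67), 1 within library set 2 (*Slc4a9*, higher at 0.52), 0 within library set 3 (fewer mice; of all genes 54, 4065 and 0 were called in the 3 sets) and 0 with the no-gene read share as covariate, so neither *Foxi1* nor *Rhcg* was called under any of these 4. Leaving out 1 library gave 2 to 5, with 5 without PBS replicate 8, the additional ones being *Atp6v0a4*, *Slc4a1* and *Slc26a4* (all higher). *Atp6v0a4* alone was also called (0.27 to 0.30) without RGLS4326 replicate 7 or PBS replicate 5 or 7. Leaving out 1 library gave 9 to 10 genes in PBS vs UNT and 8 to 9 in RGLS4326 vs UNT.

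Directions changed as follows, and the cause was not tested. In PBS vs UNT *Foxi1* was at -0.18 within library set 2 and at -0.30 with the share without a unique alignment as a covariate, where *Rhcg* was at -0.25. In RGLS4326 vs PBS library set 2 alone gave -0.16 for *Atp6v0a4*, 0.18 for *Atp6v1g3* and 0.059 for *Rhbg*, library set 3 alone gave -0.017 for *Slc26a4*, and the no-gene read share gave -0.19 for *Slc4a9*. In RGLS4326 vs UNT *Rhcg* was at -0.20 within library set 2, at -0.044 with the no-gene read share and at -0.83 with the share without a unique alignment, the last of them called (edgeR adjusted p = 0.035), and it was called higher (0.49) with library size alone. *Foxi1* in PBS vs UNT lost its call with RLE factors, DESeq2 and no filter on low counts (0.26 to 0.27). Leaving out 1 library moved the ratio of *Atp6v1b1* to *Atp6v1b2* in PBS vs UNT between -0.058 and 0.024, of *Slc26a4* to *Slc4a1* in RGLS4326 vs PBS between -0.0083 and 0.15, and of *Slc4a9* to *Slc26a4* in RGLS4326 vs UNT between -0.10 and 0.038.

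Mice of different groups share replicate numbers, but same-numbered mice did not deviate together in every pair (median r of -0.072, 0.052 and -0.041 over 11 pairs in PBS vs UNT, RGLS4326 vs PBS and RGLS4326 vs UNT, with r over 0.1 in 2, 5 and 3 pairs and up to 0.454, and at most 1 mouse of 11 closest to its own number). With a replicate block, 9 genes were called in PBS vs UNT (*Foxi1* at 0.28 lost its call), 2 in RGLS4326 vs PBS and 9 in RGLS4326 vs UNT. Of all 15644 tested genes that fit called 12781, 5098 and 12162. The ratio of *Atp6v1b1* to *Atp6v1b2* was 0.011, and the ratio of *Slc26a4* to *Atp6v1b1* in RGLS4326 vs PBS lost its call (0.45). Each of the 10 genes had at least 168 reads in every library, and the spread between mice sets their precision.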
